A study of Mus musculus with 10 samples.

Results

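Double-positive (DP) thymocytes are immature T cells that carry both CD4 and CD8 on their surface. The account below covers what these cells expressed strongly, moderately and near background in wild-type mice. Its members are the 3 arrays titled as wild-type DP cells, out of 10 arrays in the series. The mice had the genotype wild-type cd4-cre+ and were 8 weeks old, so the cells carried the Cre transgene, driven by Cd4 regulatory sequences, but no deleted allele. Thymuses came from individual mice. About 1000000 cells per sample were sorted by CD4 and CD8 staining to over 98% purity, and 6 µg of total RNA went into the biotin labelling. The other arrays held DP cells lacking E2A (2 arrays), HEB (2 arrays) or both (3 arrays), and they were not used here except for their share in the joint normalisation. The 3 wild-type arrays are called WT 1, WT 2 and WT 3.

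DP thymocytes make up most of the thymus. In them the RAG1 and RAG2 recombinase assembles the T cell receptor alpha gene, and the finished receptor is then tested for binding to self peptide and MHC. E proteins such as HEB (gene Tcf12) and E2A (gene Tcf3) bind E-box DNA motifs, hold the cell in this stage and drive many of its genes. Cells that fail the test die within days, and cells that pass become CD4 or CD8 single-positive T cells.

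Each value is a probe set signal after RMA, a procedure that corrects background, equalises the arrays and merges the probes of a probe set into 1 value. Signals are given as log2, so that 1 unit is a 2-fold difference. A probe set's signal depends on how well its probes bind as well as on the RNA, and it is not scaled to transcript length. Ranks are therefore ranks of signal and not of molecule number. Of 34760 probe sets, 21640 named 1 gene, and taking the brightest per gene left 19937 named genes, all of which are ranked. Genes in the highest 10 percent are called strong (1994 genes, 10% of the ranking). Genes are called near background where the signal was among the lowest 40 percent of an array's probe sets in 2 or 3 of the arrays (7347 genes, 36.9%), and the other 10596 genes (53.1%) are called moderate. These limits are conventions, and signals ran on without a gap across them. Just inside the strong limit stood Cflar, Suds3 and Opa1, and just outside it Ghitm, Bcap31 and Tpm4, all with a mean of 9.66. At the lower limit, the brightest near-background genes were Xist (7.65), Glrx3 (6.35) and Ece2 (6.23), and the dimmest moderate genes were Smim10l1 (5.98), Snx16 (5.97) and Senp8 (5.92). The ranking spanned 11.06 log2 units, with a median gene at 6.72.

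The 1015 olfactory receptor genes, whose products detect odours in the nose, served as a gauge of signal without expected expression. Their median was 4.49, their 95th percentile 6.22 and their highest mean 9.14. Of all named genes, 12058 (60.5%) lay above that 95th percentile, among them every strong gene, 10061 of the 10596 moderate genes and 3 of the 7347 near-background genes. Low moderate signals thus overlapped with those of genes of the nose, and a moderate call is not by itself a sign of expression.

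**Figure D1:**
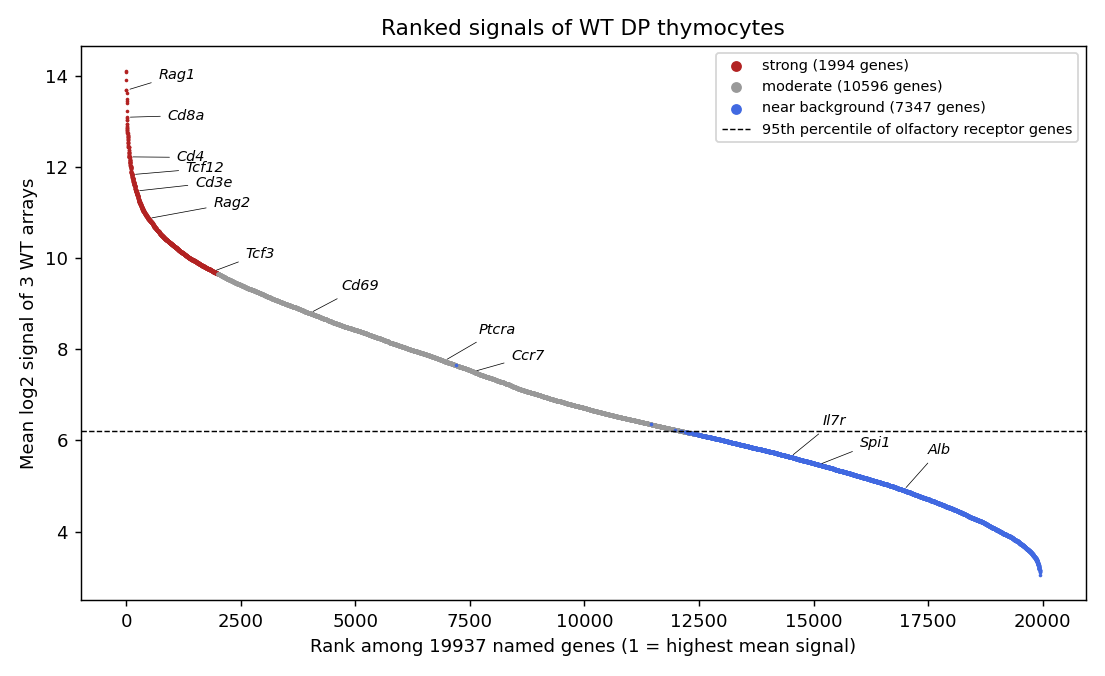
Mean log2 signal of the 3 WT arrays (y axis) against rank among the 19937 named genes (x axis), coloured by band, with the 95th percentile of the olfactory receptor genes as a dashed line at 6.22. All 6 given DP markers sit on the steep left end, between rank 5 (Rag1) and rank 481 (Rag2), while Il7r, Spi1 and Alb lie below the dashed line.

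All 6 genes chosen to mark these cells were strong. Rag1, the catalytic subunit of the recombinase, had signals of 13.64, 13.70 and 13.72 in WT 1, WT 2 and WT 3 and stood at rank 5 of the whole ranking. Cd8a, the CD8 alpha chain, gave 13.09, 13.10 and 13.10 (rank 11). Cd4 gave 12.27, 12.22 and 12.19 (rank 70). The co-receptors therefore differed by less than 1 log2 unit in signal, and each varied by under 0.1 between arrays. Tcf12 had 11.91, 11.74 and 11.86 (rank 124). Cd3e, a signalling chain of the T cell receptor complex, had 11.56, 11.40 and 11.47 (rank 215). Rag2, the partner of Rag1, had 10.81, 10.91 and 10.90 (rank 481). Arranged by signal, no neighbouring pair of these 6 genes overlapped in the 3 arrays. With 3 paired arrays, an exact two-sided sign-flip permutation test cannot give a p below 0.25, so orders are described by overlap and carry no p.

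The very top of the ranking mixed RNAs of general use with genes of the T lineage. Rpph1, the RNA of ribonuclease P, led with a mean of 14.11 ± 0.04 (SD, n = 3), followed by Rn7sk, a regulator of transcription elongation, at 14.09 ± 0.06. Next came Actb, cytoskeletal actin, at 13.91 ± 0.06 and Eef1a1, a translation elongation factor, at 13.69 ± 0.08. Rag1, at 13.69 ± 0.04, could not be set apart from Eef1a1, whose arrays gave 13.69, 13.77 and 13.61. At rank 6 stood Satb1, a chromatin organiser of thymocytes, with 13.64, 13.60 and 13.64. The structural RNAs n-R5s136 and Rny3, the ribosomal protein gene Rpl9 and the nuclear RNA Malat1 filled ranks 7 to 10. Then came Cd8a, the p53-induced Trp53inp1 (13.07 ± 0.09), the chemokine receptor gene Cxcr4 (13.04 ± 0.14), Snord33 and Cd8b1. Among the 30 highest genes, 7 belonged to the lists of DP stage genes, T cell receptor signalling or chemokine receptors, namely Rag1, Satb1, Cd8a, Cxcr4, Cd8b1, Cd3g and Ptprc. The mitochondrially encoded COX2, a subunit of cytochrome oxidase, stood at rank 20 with 12.84, 12.85 and 12.87.

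Genes known for the DP stage lay almost wholly in the strong band. Of 22 such genes analysed, 19 were strong (86.4%, against 10% of all named genes), 3 were moderate and 0 were near background. Their median signal was 11.05. Cd8b1, the CD8 beta chain, gave 12.88, 12.92 and 13.07. Dntt, the terminal transferase that adds bases at V(D)J joins, gave 12.51, 12.69 and 12.67, and Ccr9, a receptor for the thymic chemokine CCL25, gave 12.73, 12.55 and 12.56. These 2 genes overlapped. Themis, a regulator of receptor signalling in selection, had 12.12, 12.13 and 12.17, and the transcription factor gene Ets2 had 12.04, 12.02 and 11.96. Below them lay Arpp21, Aqp11, Plxnd1, Bcl2l1, Ly6d, Cd24a and the SLAM family genes Slamf6 and Slamf1 with their adaptor Sh2d1a, with means between 9.90 and 11.50. The 3 moderate members were Cd1d1, which presents lipids to NKT cells (9.85, 9.43 and 9.30), the activation marker Cd69 (8.61, 9.08 and 8.69), and Ptcra. Ptcra encodes the pre-T alpha chain of the earlier, double-negative stage, and its 7.61, 7.89 and 7.73 were the lowest of the list in every array. Of the 21 neighbouring pairs in this list, 8 overlapped in the arrays.

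The genes analysed of the T cell receptor complex and its signalling were all strong. They numbered 25, against a strong share of 10% of all named genes, and had a median of 11.03. A further 3 of the 28 genes in the list were not in the ranking and are not covered. The receptor gene segments form a separate list below. Among the CD3 chains, Cd3g (12.81, 12.92 and 12.90) lay above Cd3e and Cd3d (11.56, 11.38 and 11.18), and Cd247, the zeta chain, lay at 10.06, 10.12 and 10.29. Ptprc, the phosphatase CD45 that activates Lck and Fyn, had 12.70, 12.76 and 12.79, and Thy1 had 12.69, 12.56 and 12.52. Rasgrp1, which loads Ras with GTP downstream of the receptor, had 12.28, 12.14 and 12.21. The adaptor genes Lat (11.58, 11.83 and 11.85), Grap2 (11.40, 11.42 and 11.48) and Lcp2 (11.35, 11.32 and 11.40) formed a middle tier with the co-stimulatory receptor gene Cd28 (11.42, 11.42 and 11.43). Zap70, the kinase that docks on the CD3 chains, lay lower at 9.75, 10.04 and 10.07, and Fyn lay at 9.68, 9.90 and 9.84. Lowest was Ubash3a, a negative regulator, at 9.72, 9.74 and 9.64, just above the strong limit, and it left the strong band when WT 1 was left out or when probe sets naming several genes were also used. Of 24 neighbouring pairs, 17 overlapped, so the order within this group was mostly not resolved.

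**Figure D2:**
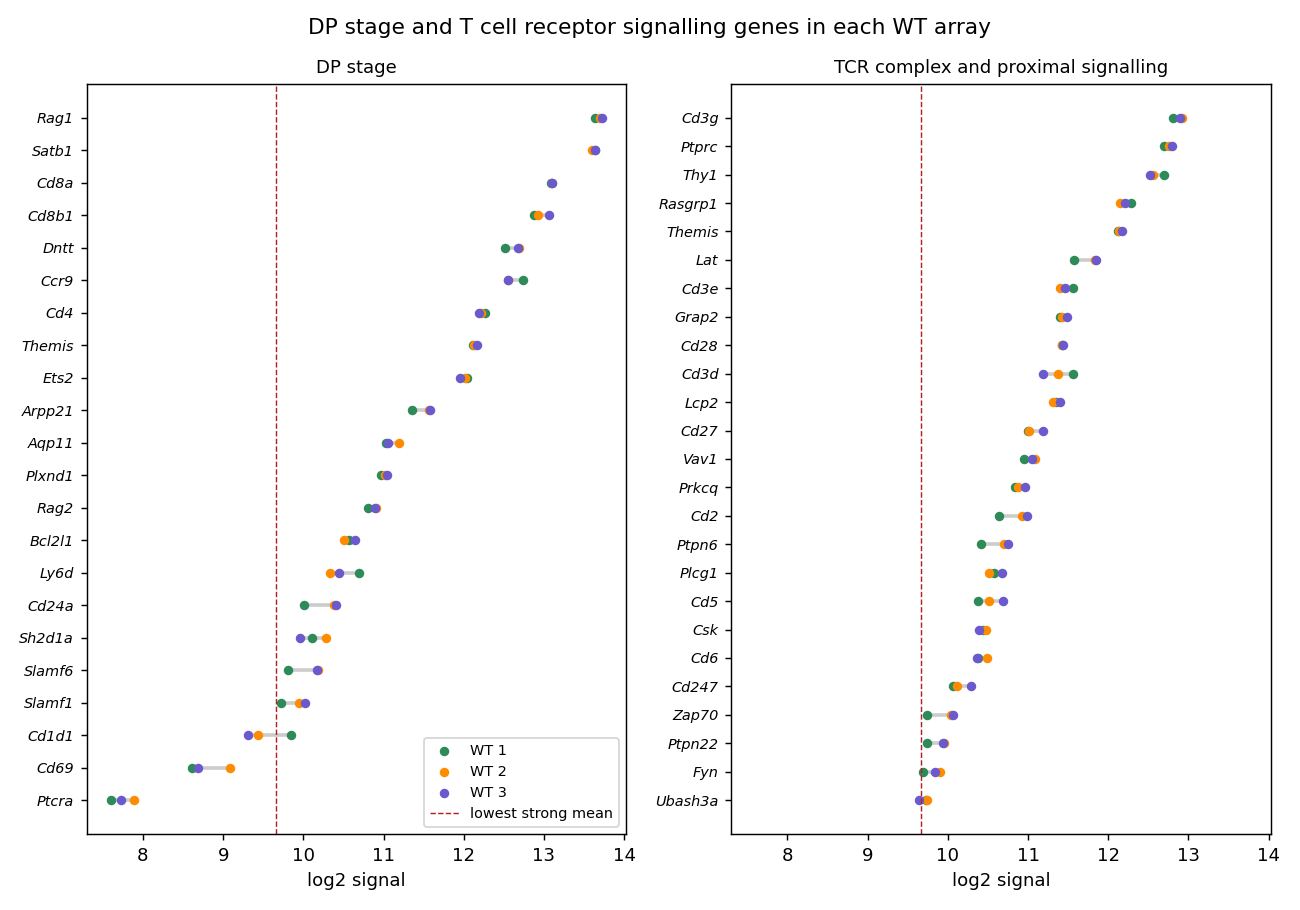
Log2 signal (x axis) of each DP stage gene (left) and each T cell receptor signalling gene (right) in the 3 WT arrays, 1 point per array, with the lowest strong mean (9.66) as a dashed line. In the left panel only Cd1d1, Cd69 and Ptcra have means left of the line, and in the right panel no gene does.

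Within the V(D)J recombination and end joining list, the lymphoid-specific members were strong and most general repair genes were moderate. Of 20 genes analysed, 9 were strong (45%), 10 moderate (50%) and 1 near background (5%), against 10%, 53.1% and 36.9% of all named genes. Besides Rag1, Rag2 and Dntt, the strong members were Hmgb2 and Hmgb1, which bend DNA for the recombinase, Xrcc6 (Ku70), Lig4 and Xrcc4 of the joining step, and the damage histone H2ax. Xrcc6 gave 11.19, 11.48 and 11.44, whereas Xrcc5, which encodes its partner Ku80, gave 8.37, 8.65 and 8.20. Both probe sets name proteins that work as a dimer, and their signals cannot be turned into a ratio of molecules. Prkdc, the DNA-dependent kinase, lay at 8.49, 8.86 and 8.69, and Nhej1 at 7.74, 7.85 and 7.62. The polymerase gene Poll, at 6.10, 5.91 and 5.93, was the member near background.

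Both E proteins of DP cells were strong, but far apart in signal. Tcf12 averaged 11.84 and Tcf3, at 9.65, 9.85 and 9.63 (rank 1895), lay near the lower edge of the strong band. The third E protein gene, Tcf4, was moderate at 8.62, 8.73 and 8.64. Of their inhibitors, the Id proteins, Id3 had the highest signal (8.12, 8.33 and 8.01), while Id1, Id4 and Id2 lay between 6.35 and 6.78 in all arrays. The values of Id2 were 6.35, 6.61 and 6.54, close to the 6.22 mark of the olfactory receptors. Tal1, Lyl1 and Lmo2, which pair with E proteins in early progenitors, had means between 6.84 and 7.13. Of the 10 genes of this group, 2 were strong (20%), 8 moderate (80%) and 0 near background, against 10%, 53.1% and 36.9% of all named genes. With the limit at the 50th percentile, Id2 was near background. The call of Tcf3 as strong was lost when probe sets naming several genes were also used.

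Listed transcription factors of the T lineage had higher signals than those of other lineages. Of 26 T-lineage factors, 20 were strong (76.9%), 5 moderate and 1 near background. Of 25 factors of other lineages and stages, 0 were strong, 13 were moderate (52%) and 12 were near background (48%), with a median of 6.20. Of all named genes, 10% were strong, 53.1% moderate and 36.9% near background, with a median of 6.72. With the limit at the 30th percentile, 6 of the 25 were near background. After Satb1 came Nfatc3 (12.10, 12.13 and 12.22), a calcium-responsive factor, Ets1 (12.08, 12.06 and 12.15) and Myb (11.87, 11.76 and 11.97), which is needed for DP survival and receptor alpha rearrangement. Ikzf1 (Ikaros), Lef1, a Wnt pathway factor, and Bcl11b, a guardian of T-cell identity, had means of 11.59, 11.52 and 11.52. Gata3, required for the CD4 lineage, had 10.14, 10.14 and 10.28, Notch1 had 10.21, 10.22 and 9.97, and Runx1 had 10.04, 9.99 and 9.88.

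The T-lineage factors outside the strong band included regulators of the later lineage choice. Runx3, a factor of the CD8 lineage, lay at 7.21, 7.18 and 7.31. Zbtb7b (ThPOK), the factor of the CD4 lineage, lay at 6.20, 5.57 and 5.79 and was near background, a call that was lost when WT 2 or WT 3 was left out. With 2 arrays left, such a call needs both below the limit, so leaving out an array makes it stricter here and in the other lists. Foxo1 and Klf2, which act in mature naive T cells, lay at 8.72, 8.65 and 8.19 and at 7.80, 7.40 and 7.63. Rora, the gene of a nuclear receptor, lay at 6.05, 6.30 and 6.41. Among factors of other lineages, Cebpb (7.13, 7.18 and 7.34) was highest, Pax5 of B cells had 6.29, 6.14 and 6.42, and Foxp3 of regulatory T cells had 6.41, 6.11 and 6.24. Spi1 (PU.1) lay at 5.59, 5.38 and 5.42, Ebf1 at 5.12, 4.91 and 4.90, and Neurod1, at 4.28, 4.23 and 4.16, was the lowest of the group.

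Survival and death genes of the Bcl-2 family were mostly moderate. Of 14 such genes, 2 were strong, 12 moderate and 0 near background. The strong share, 14.3%, was close to the 10% of all named genes, and the moderate share was 85.7% against 53.1%. With the limit at the 50th percentile, 1 gene, Bcl2l2, was near background. The strong pair consisted of the anti-apoptotic genes Mcl1 (11.81, 11.79 and 11.55) and Bcl2l1 (10.57, 10.51 and 10.65), and Bcl2l1 encodes Bcl-xL, known as the main survival protein of DP cells. Bcl2, used by mature T cells, lay lower at 7.59, 7.85 and 7.66 (rank 7044). The pro-apoptotic genes Bmf (9.65, 9.71 and 9.52) and Bcl2l11 (9.16, 9.45 and 9.38), which encodes Bim, the killer of cells that bind self too firmly, had the highest signals among the moderate members. Bbc3 (Puma) and Pmaip1 (Noxa), targets of p53, had means of 6.73 each.

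Genes of cytokine receptors and their JAK-STAT signalling were spread over the bands. Of 26 genes, 10 were strong (38.5%), 13 moderate (50%) and 3 near background (11.5%), against 10%, 53.1% and 36.9% of all named genes. The kinase gene Jak1 (11.78, 11.78 and 11.83), the interferon-gamma receptor gene Ifngr1 (11.37, 11.82 and 11.55) and Il6st, the shared chain gp130 (11.13, 10.88 and 11.10), were highest. Il4ra had 10.58, 10.55 and 10.42, and the genes Stat5b, Stat5a, Stat3 and Stat6 of the signal transducers were all strong, Stat6 by a margin that was lost without WT 3 or when probe sets naming several genes were also used. The 3 near-background members were Il7r (5.22, 6.00 and 5.69), Il2rb (5.74, 5.88 and 5.52) and Il18r1 (5.11, 4.85 and 5.17). With the limit at the 30th percentile, Il7r and Il2rb were moderate and 1 member remained near background. Il7r encodes the IL-7 receptor, which DP cells are known to lack and which precursors and mature T cells carry, and Il2rb encodes the beta chain of the IL-2 receptor. Il2ra, the CD25 chain of double-negative cells, lay at 6.33, 6.57 and 6.22.

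Genes for migration and adhesion were also spread over the bands. Of 18 such genes, 8 were strong (44.4%), 7 moderate (38.9%) and 3 near background (16.7%). The shares of all named genes were 10%, 53.1% and 36.9%. Cxcr4 (13.12, 13.13 and 12.87) and Ccr9 led, followed by Itgal and Itgb2, the chains of LFA-1, and by Selplg, Plxnd1, Itga4 and Itgb1. Ccr7, which guides selected cells to the medulla, had 7.65, 7.47 and 7.41. S1pr1, which directs mature cells into the blood, had 6.37, 6.19 and 6.14, at about the 6.22 mark of the olfactory receptors. Itgae, Ccr8 and Cxcr5 were near background.

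The list of mature single-positive T cell genes, which belong to the next stage, had 3 strong genes of 15, 10 moderate and 2 near background. That was 20% strong and 13.3% near background, against 10% and 36.9% of all named genes. The strong ones were Gimap6 (11.29, 11.58 and 11.61), Cd52 (10.33, 10.76 and 10.44) and Gata3. Klf2 and Ccr7 were moderate, and Gimap3 (5.92, 6.22 and 5.78) and Il7r were near background. The list's median was 7.51, against 6.72 for all named genes, so the list as a whole was not low. Gimap3 became moderate when WT 1 or WT 3 was left out, and both Gimap3 and Il7r did with the limit at the 30th percentile. Effector genes were lower. Of 21 cytokines and effector proteins, 2 were strong, 6 moderate and 13 near background (61.9%, against 36.9% of all genes, or 8 with the limit at the 30th percentile). The strong pair was Tgfb1 (10.37, 10.08 and 9.93) and Ltb, the gene of lymphotoxin beta (9.56, 9.84 and 9.75), which left the strong band when probe sets naming several genes were also used. Ifng (5.86, 5.98 and 5.76), Il4 (5.98, 5.85 and 5.88) and Il2 (4.76, 4.32 and 4.18) were near background. Gzma, a granule protease of killer cells, was the highest of the others at 7.53, 8.14 and 7.64.

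Genes that answer to receptor stimulation were mostly moderate. Of 22 immediate early genes, 4 were strong (18.2%), 16 moderate (72.7%) and 2 near background (9.1%). The shares of all named genes were 10%, 53.1% and 36.9%. The strong ones were the antiproliferative genes Btg1 (12.18, 12.38 and 12.30) and Btg2 (11.76, 11.72 and 11.63), Jund (10.52, 10.28 and 10.37) and Nr4a1 (10.16, 9.69 and 9.64). Nr4a1 encodes Nur77, a factor induced by receptor signalling, and it fell outside the strong band when WT 1 was left out. The near-background count was 1 without WT 2 or without WT 3, as Nr4a2 (6.23, 6.03 and 6.00) became moderate, and it was 0 and 4 with the limit at the 30th and 50th percentile. Egr1 had 8.01, 7.88 and 8.04, Myc had 7.26, 7.97 and 7.70, Fos had 7.17, 6.73 and 7.18, and Jun had 7.27, 7.28 and 7.54. The stress-inducible Hspa1a, which belongs to the chaperone list, had 6.77, 6.84 and 6.81, while the constitutive Hspa8 of the same family had 12.10, 12.70 and 12.17.

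Most cytosolic ribosomal protein genes were strong, and translation factors were divided between the strong and moderate bands. Of 62 cytosolic ribosomal protein genes, 43 were strong (69.4%, against 10% of all named genes), 16 moderate and 3 near background. Their median was 10.94. Rpl9 gave 13.36, 13.52 and 13.33 and Rplp0, of the ribosomal stalk, gave 12.94, 12.96 and 12.81. The 3 near-background members, Rpl3l, Rpl10l and Rpl39l, are paralogs known for use in muscle or testis. Ribosomal protein genes have many near-identical pseudogenes, so their probe sets may share signal, and several of them had a second, dimmer probe set. Averaging a gene's probe sets lowered Rpl9 to 11.45 and Rpl19 to 8.66, where the brightest probe set of Rpl19 gave 12.31. Of 62 translation factors and their modifying enzymes, 26 were strong (41.9%), led by Eef1a1, Eif4g2 (12.63, 12.49 and 12.50), Eif4a1 and Eef2.

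Among genes of RNA processing, splicing genes were mostly strong, and small nucleolar RNAs were spread over the bands. Of 60 splicing genes, 34 were strong (56.7%, against 10% of all named genes), 25 moderate and 1 near background. Hnrnpf (12.87, 13.08 and 12.91) and Hnrnpk (12.82, 12.89 and 12.85), RNA-binding proteins of nascent transcripts, were highest, followed by Srsf3 and Hnrnpu. Averaging probe sets gave 11.83 for Hnrnpk. Sf3b1, the core of the U2 particle, had 12.19, 12.21 and 12.09. Among small nucleolar RNAs, which guide the chemical modification of ribosomal RNA, 17 of 54 were strong (31.5%) and 5 near background (9.3%). Near background were 36.9% of all named genes. Most of them lie in introns of host genes, and a probe set may read the host transcript too.

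Nuclear genes for mitochondria were mainly moderate, but the strong share differed between lists. Of 82 nuclear genes of the respiratory chain, 24 were strong (29.3%), 56 moderate (68.3%) and 2 near background (2.4%), with a median of 9.07. The shares of all named genes were 10%, 53.1% and 36.9%. The ATP synthase genes Atp5a1 (12.19, 12.32 and 12.18) and Atp5b (12.03, 12.25 and 12.05) led the list. The near-background members were Cox7a1 and Cox7b2, forms of cytochrome oxidase subunits known from muscle and testis, and Cox7a1 became moderate without WT 2 or WT 3. Of 77 mitochondrial ribosomal protein genes, 3 were strong (3.9%, below the share of all genes) and 73 moderate (94.8%). The proteasome list had 14 strong genes of 48 (29.2%) and 32 moderate ones (66.7%). Its near-background members, Psmb11 (6.00, 5.59 and 5.68) and Psma8 (5.26, 5.07 and 5.24), encode the subunits of the thymic cortical epithelium and of the testis.

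In glycolysis, 7 of 15 genes were strong (46.7%), 7 moderate (46.7%) and 1 near background (6.7%). The shares of all named genes were 10%, 53.1% and 36.9%. Hexokinase isoforms differed in probe set signal, with Hk1 at 12.42, 12.26 and 12.28 and Hk2 at 6.37, 6.23 and 6.32. The Hk1 value is that of the brightest of several probe sets, and their average was 10.66. When probe sets naming several genes were also used, Hk1 took a mean of 13.47. That is also the mean of a probe set whose symbols include the ribosomal protein gene Rpl17. Whether the probe sets of Hk1 read other transcripts was not tested. Ldha (11.22, 11.50 and 11.15) and Ldhb (10.10, 10.42 and 9.98), the chains of lactate dehydrogenase, were both strong. The glucose transporter genes Slc2a1 (8.25, 8.36 and 8.04) and Slc2a3 (7.92, 8.04 and 7.89) were moderate.

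Actin cytoskeleton genes stood high, with 20 of 22 strong (90.9%, against 10% of all named genes), 2 moderate and a median of 11.14. Below Actb lay Cfl1, cofilin (12.67, 12.53 and 12.46), Pfn1, profilin (12.49, 11.81 and 11.96), and the haematopoietic coronin gene Coro1a (12.15, 12.01 and 11.78). The lowest were Wipf1 (9.52, 9.49 and 9.64) and Was, the Wiskott-Aldrich protein gene (9.21, 9.17 and 9.38). Antigen presentation by MHC class I had a smaller strong share than the actin list, but a larger one than all genes. Here 6 of 15 genes were strong (40%) and 9 moderate (60%), against 10% and 53.1% of all named genes. B2m, the invariant light chain, had 11.77, 11.84 and 11.62. Tap1, a subunit of the peptide transporter, had 9.10, 9.08 and 8.98, and DP cells are known for low surface MHC class I. The tightly homologous classical heavy-chain genes were not in the single-symbol ranking and are not analysed here.

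Cell-cycle genes were strong or moderate in these cells. Of 24 DNA replication genes, 9 were strong (37.5%) and 15 moderate. Of 22 mitosis genes, 12 were strong (54.5%) and 10 moderate. None was near background in either list, against 36.9% of all named genes, of which 10% were strong. Pcna, the sliding clamp of DNA polymerases, had 12.20, 12.83 and 12.28. Mki67, the proliferation marker, had 11.74, 12.10 and 12.03, and Ccna2, cyclin A2, had 11.15, 11.28 and 11.11. Top2a averaged 11.61 by its brightest probe set and 9.25 when its probe sets were averaged. Of 17 D cyclins, kinases and inhibitors of the G1 phase, 9 were strong (52.9%) and 8 moderate (47.1%). With the limit at the 50th percentile, 2 of them, Ccnd1 and Cdkn2a, were near background. Ccnd3, cyclin D3, was strong (11.16, 10.94 and 11.02), and Ccnd2 (7.59, 7.69 and 7.48) and Ccnd1 (6.59, 6.08 and 6.35) were moderate. The inhibitor gene Cdkn1b, p27, lay beside Ccnd3 at 10.97, 11.09 and 11.14, or at a mean of 10.16 over its probe sets. Bulk RNA cannot tell a few dividing cells with much of this RNA from many cells with little, and fewer cells of a type cannot be told from less RNA per cell in any list here.

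In several lists the 3 arrays differed over the list as a whole, cell-cycle and chaperone genes among them. All 24 replication genes and all 22 mitosis genes were highest in WT 2, against 31.9% of all named genes and 41.3% of the 12590 genes not near background. The typical replication gene lay 0.37 log2 units higher in WT 2 than in the mean of WT 1 and WT 3, and the typical mitosis gene 0.35 higher. Chaperones did likewise, with 17 of 18 highest in WT 2 and a median difference of 0.39. Hsph1, a heat shock protein of the Hsp110 family, had 8.61, 9.59 and 8.28. The proteasome (42 of 48), the respiratory chain (64 of 82) and the mitochondrial ribosome (58 of 77) were also mostly highest in WT 2. So were V(D)J recombination (14 of 20), glycolysis (11 of 15), splicing (43 of 60), translation factors (44 of 62) and cytosolic ribosomal proteins (40 of 62). DP stage genes (7 of 22) and T cell receptor signalling genes (7 of 25) were not, and their median differences were 0.02 and 0.00. In the opposite direction, 40.3% of all named genes were lowest in WT 2, among them 14 of 18 muscle protein genes. WT 1 stood apart in other lists. It was highest in 9400 of all named genes (47.1%), and in 85 of 112 ion channel genes, 76 of 96 keratin genes, 31 of 37 Hox genes and 16 of 18 muscle protein genes, lists that held few or no strong genes.

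WT 2 also stood apart in genes of the sex chromosomes. Xist, the RNA of the inactive X chromosome, had 5.45, 12.20 and 5.28, and the Y-linked genes Eif2s3y (9.38, 4.13 and 10.07), Uty (8.83, 4.48 and 9.36) and Kdm5d (8.67, 4.59 and 8.82) showed the reverse pattern. The labels used here give no sex. The part of this in the cell-cycle and chaperone values was not tested. With 1 such array, sex and other features of that mouse or its array cannot be told apart. Without WT 2, Xist averaged 5.37, and Eif2s3y averaged 9.72 and moved into the strong band. Means of these 4 genes over the 3 arrays describe no mouse.

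**Figure D3:**
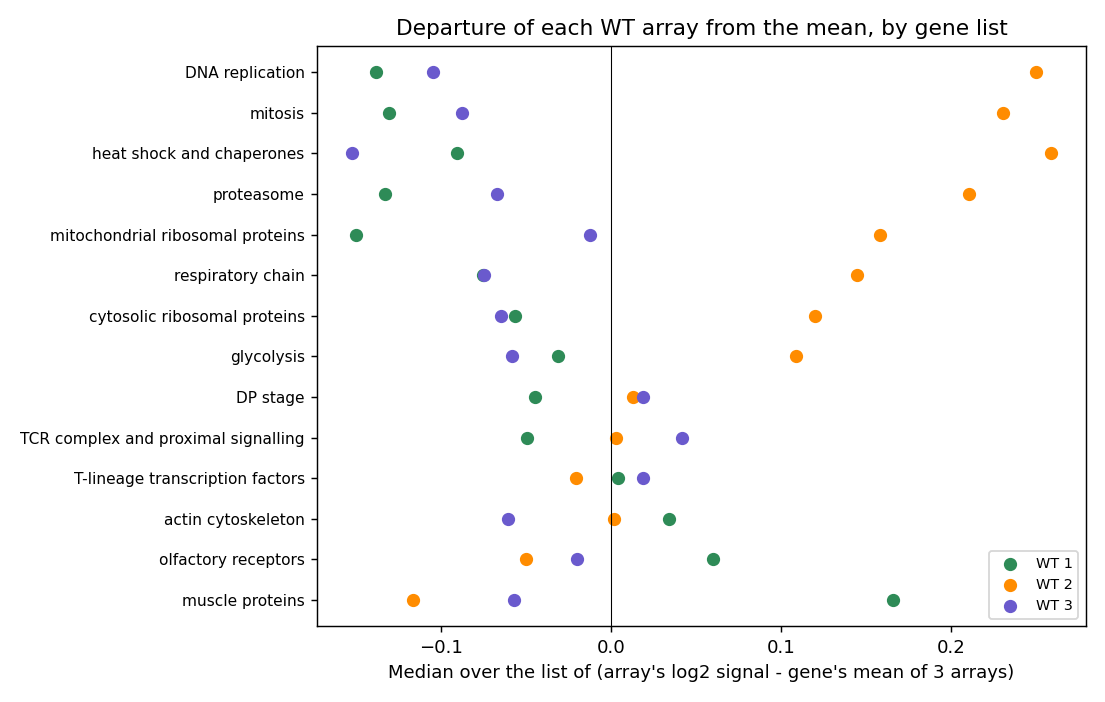
Median departure of each WT array from the 3-array mean (x axis, log2 units) for 14 gene lists (y axis), 1 point per array. WT 2 lies at 0.25 for DNA replication, 0.23 for mitosis and 0.26 for chaperones, and within 0.03 of 0 for DP stage genes, T cell receptor signalling and T-lineage factors.

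Apart from these genes the arrays were close. The median SD of a gene over the 3 arrays was 0.13 log2 units, and it was 0.10 in the strong band. A range above 1 log2 unit was seen in 41 genes, 31 of them not near background. Besides the Y-linked genes these included Cpt1a, the gate of fatty acid oxidation (7.85, 8.51 and 9.80, highest in WT 3), Igf2bp3 (6.60, 7.75 and 6.27), the receptor segments Trav7n-5 (7.51, 8.95 and 8.19) and Trav14-1 (9.25, 10.61 and 9.85), and Tsc22d3, a glucocorticoid-induced gene (7.82, 8.32 and 7.06). Across genes, Pearson correlations between arrays were 0.990 for WT 1 with WT 2 and 0.994 for the other pairs, as a description in which genes are not independent replicates. Of the 1994 strong genes, 1905, 1905 and 1924 were in the highest 10 percent of WT 1, WT 2 and WT 3 taken alone.

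Probe sets naming several genes were left out, and 9 T cell receptor segments remained in the ranking. Of these, 2 were strong (22.2%), 5 moderate (55.6%) and 2 near background (22.2%), against 10%, 53.1% and 36.9% of all named genes. Trbv1 had 10.12, 10.19 and 9.94, and Trav14-1 varied by more than 1 log2 unit between arrays. The call of Trav14-1 as strong was lost when probe sets were averaged, when they were picked over all 10 arrays, and without WT 2. Trgv1, a gamma segment, was near background at 5.04, 5.57 and 5.06.

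Histone genes spread over all bands, with 15 of 36 strong (41.7%), 16 moderate (44.4%) and 5 near background (13.9%). The shares of all named genes were 10%, 53.1% and 36.9%. The linker histone genes H1f5 (12.47, 12.82 and 12.81) and H1f1 (11.91, 12.54 and 12.36) and the core histone gene H2ac15 (12.36, 12.54 and 12.41) were highest. Many of these genes are near-identical copies, and probe sets that name several of them were left out. When such probe sets were also used, 26 of the 36 genes were strong, and H3c7, near background at 4.78, 4.76 and 4.92 by its own probe set, took a mean of 13.73. H3f3a moved likewise, with a mean of 5.22 by its own probe set and 11.42 by a shared one.

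Of 291 microRNA genes, 1 was strong (0.3%), 102 were moderate (35.1%) and 188 were near background (64.6%). The shares of all named genes were 10%, 53.1% and 36.9%. Without WT 2, or with probe sets averaged, Mir346 was strong too. The probe sets read the hairpin or its precursor transcript, so their signals say little of the mature microRNA. The strong gene was Mir181b-1, at 10.26, 10.54 and 10.58, and its cluster neighbour Mir181a-1 had 8.38, 9.11 and 9.22. The miR-181 family is known to tune T cell receptor sensitivity in thymocytes. Mir181d, a relative on another chromosome that was picked after its value was seen, had a mean of 8.28. The mature sequences from RefSeq (GRCm38.p6) are shown, with the seed, bases 2 to 8 and the part that pairs with targets, in capitals, because the 3 genes share it.
miR-181b-5p (Mir181b-1, chr1:137966650-137966673, plus strand): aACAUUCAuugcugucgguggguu
miR-181a-5p (Mir181a-1, chr1:137966468-137966490, plus strand): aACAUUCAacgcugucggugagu
miR-181d-5p (Mir181d, chr8:84178759-84178781, minus strand): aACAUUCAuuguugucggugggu
The seed ACAUUCA was the same in all 3, and the differences lay in the later bases. Other moderate microRNA genes included Mir346 (9.85, 9.32 and 9.68) and Mir341 (9.40, 8.91 and 9.14), both lowest in WT 2.

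Several gene families of the senses and of other tissues were mostly near background, against 36.9% of all named genes. Of the olfactory receptors, 0 were strong, 64 moderate and 951 near background (93.7%), and of 163 vomeronasal receptors 162 were near background. The 2 highest olfactory receptors, Olfr1174 (mean 9.14) and Olfr767 (mean 9.13), stood far above the 99th percentile of their family, 7.04. Taste receptors (34 of 37 near background), beta-defensins (31 of 39), neurotransmitter receptor subunits (44 of 58) and liver and plasma proteins (13 of 16) behaved alike. Albumin (Alb) had 5.07, 4.90 and 4.75. Chrna9, an acetylcholine receptor subunit gene, was the highest receptor subunit at 8.51, 8.88 and 8.60. Keratins and their associated proteins (60 of 96), Hox genes (23 of 37) and claudins (12 of 23) were near background less uniformly. Muscle proteins (8 of 18), neuronal proteins (8 of 18), crystallins (9 of 18) and Wnt ligands (6 of 19) were divided between the moderate and near-background bands, with 0 strong genes in each list. The near-background shares of muscle and neuronal proteins (44.4% each) and Wnt ligands (31.6%) were not far from that of all genes. The muscle count was 5 without WT 2 or without WT 3, and 2 with the limit at the 30th percentile, and the Wnt count was 3 and 11 at the 30th and 50th. The highest of them was Dlg4, a scaffold gene of synapses, at 8.80, 8.57 and 8.75.

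Ion channels held exceptions that are known from T cells. Of 112 genes, 2 were strong, 50 moderate and 60 near background. The near-background share was 53.6%, against 36.9% of all named genes, and 38 genes remained near background with the limit at the 30th percentile. The strong pair was Kcnn4, the calcium-activated potassium channel KCa3.1 (10.33, 10.52 and 10.36), and Kcna3, the voltage-gated channel Kv1.3 (10.25, 9.92 and 10.03), and their ranges did not overlap. Kcnab2, a beta subunit of potassium channels, followed at 9.59, 9.77 and 9.59. Cacna1e, a calcium channel gene of neurons, had 8.47, 9.37 and 8.20 and was among the 15 genes with the largest SD. Among mitogen and stress kinases, 28 of 35 were moderate (80%, against 53.1% of all named genes) and 4 were strong (11.4%, against 10%). The strong ones were Map3k1, Map3k7, Map2k5 and Mapk6, the last of which became moderate without WT 1.

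**Figure D4:**
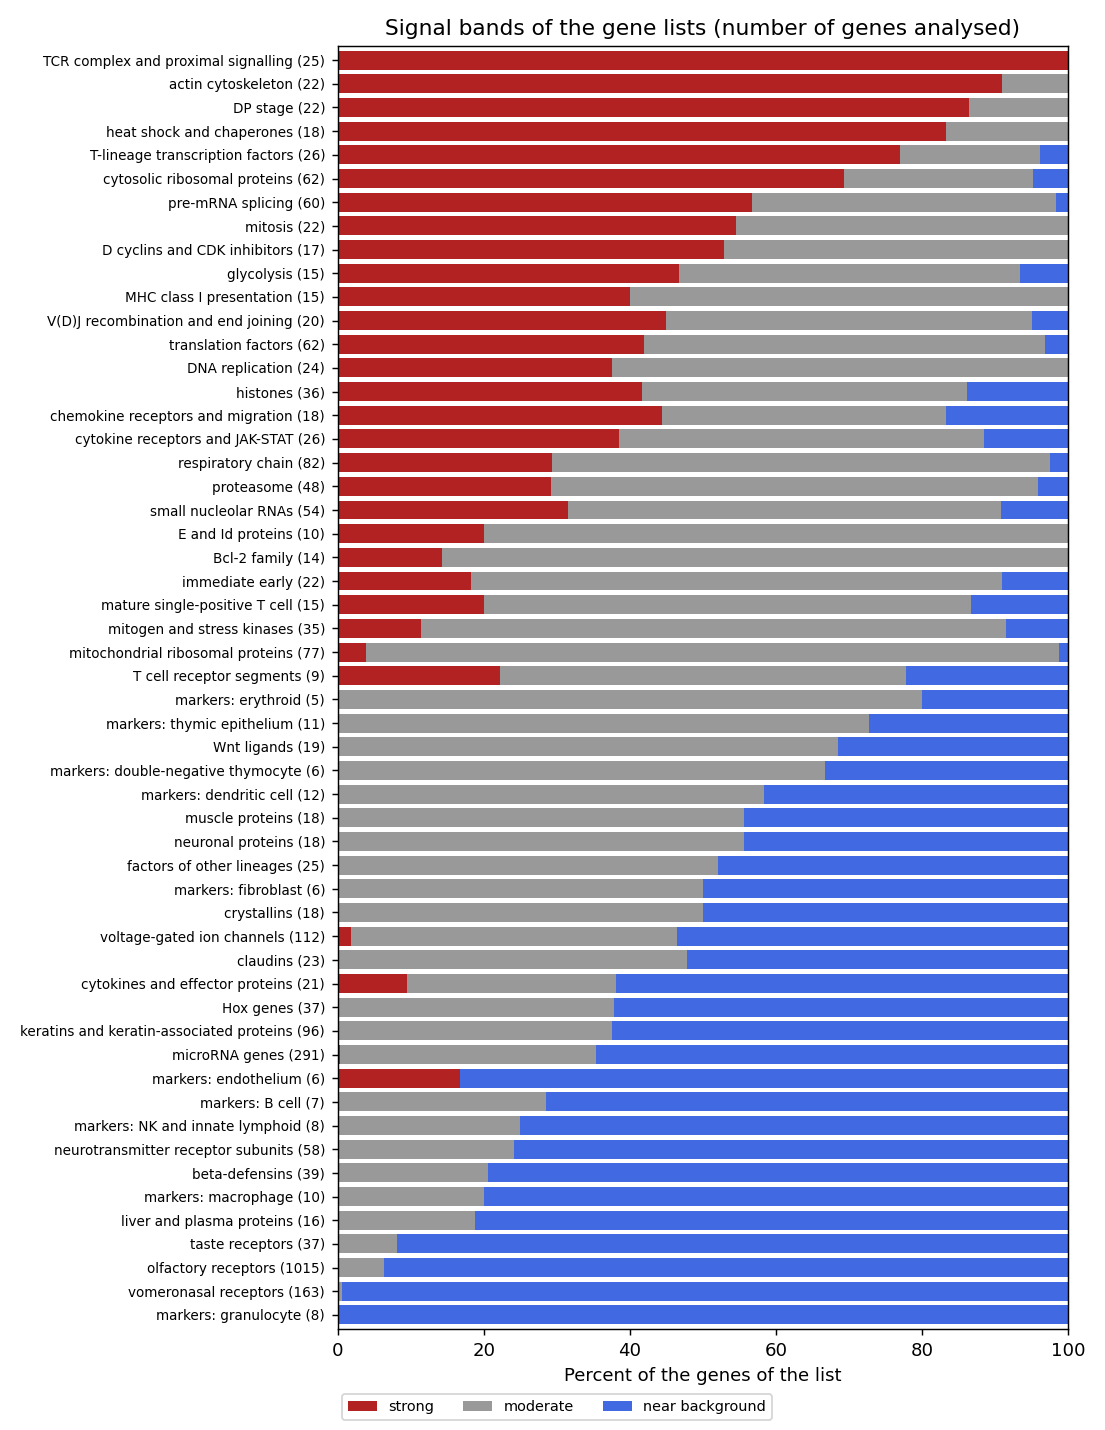
Share of strong, moderate and near-background genes (x axis, percent) in each gene list with at least 5 genes analysed (y axis, number of genes in brackets), ordered by strong minus near-background share. T cell receptor signalling is strong throughout, whereas granulocyte markers are near background throughout, and all named genes stand at 10% strong and 36.9% near background.

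With 1 exception, markers of other cells of the thymus were moderate or near background. For comparison, 36.9% of all named genes were near background. All 8 granulocyte markers were near background, as were 8 of 10 macrophage markers, 6 of 8 markers of NK and innate lymphoid cells, 5 of 7 B cell markers and 5 of 12 dendritic cell markers (41.7%). Without WT 2 or WT 3, the granulocyte marker Camp became moderate. With the limit at the 30th percentile, 4 of the granulocyte and 4 of the macrophage markers remained near background. Among erythroid markers 1 of 5 and among fibroblast markers 3 of 6 were near background, and the rest were moderate. The near-background shares of dendritic cell (41.7%), thymic epithelial (27.3%) and double-negative markers (33.3%), and of the erythroid markers, were near or below that of all genes, so nothing is read from them. The MHC class II genes H2-Aa (5.39, 5.55 and 5.06), H2-Ab1 (6.04, 6.29 and 6.14) and H2-Eb1 (6.72, 6.64 and 6.61) lay around the 6.22 mark. The B cell markers Cd79a (4.77, 4.66 and 4.65) and Ms4a1 were near background, while Cd79b had 7.89, 8.27 and 7.91. Of 11 thymic epithelial markers, 3 were near background and 8 moderate, with Cldn4 at 8.30, 8.58 and 8.36 and the factor Foxn1 at 6.20, 6.06 and 5.85. The double-negative markers Dtx1, Cd44, Kit and Il2ra were moderate with means under 7.21, and Hes1 and Cd34 were near background. A single marker of another cell was strong, the endothelial adhesion gene Pecam1 (9.85, 9.79 and 9.82), while the other 5 endothelial markers, such as Cdh5 (5.98, 5.73 and 5.71), were near background. Medians of these lists lay between 4.98 and 6.58, and their part in other values was not tested.

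Promoters of strong genes differed from those of low genes in CpG content. A promoter here is the RefSeq stretch of 300 bases, from 250 before to 50 after the first start site listed, available for 15613 of the named genes. The CpG ratio is the number of CG pairs over the number expected from the C and G content. Its median was 0.84 in strong genes (n = 1631), 0.73 in moderate genes (n = 8381) and 0.27 in near-background genes (n = 5601). GC content went the same way, with medians of 63.3%, 60.3% and 49.3%. A ratio under 0.5 was found in 201 strong promoters (12.3%) and in 4009 near-background promoters (71.6%). These are descriptions across genes, with no test.

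Strong genes of the DP stage and T cell receptor lists mostly had low CpG ratios, unlike the strong ribosomal protein and splicing genes. The 14 strong DP stage genes with a promoter had a median ratio of 0.21, and 11 of them were under 0.5. The 21 T cell receptor signalling genes had a median of 0.31, and 17 were under 0.5. Strong ribosomal protein genes stood at 0.93 (n = 34) and strong splicing genes at 0.99 (n = 32). The strong T-lineage transcription factors lay between, with a median of 0.66 (n = 15) and 4 under 0.5, and the strong V(D)J genes had 0.72 (n = 8). Single T-lineage genes had high ratios, such as Ikzf1 (1.06), Myb (0.95), Prkcq (0.93) and Rasgrp1 (0.88). Cytokine and effector genes, mostly near background, had 0.26 (n = 18), so a low ratio went with both ends of the signal range.

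**Figure D5:**
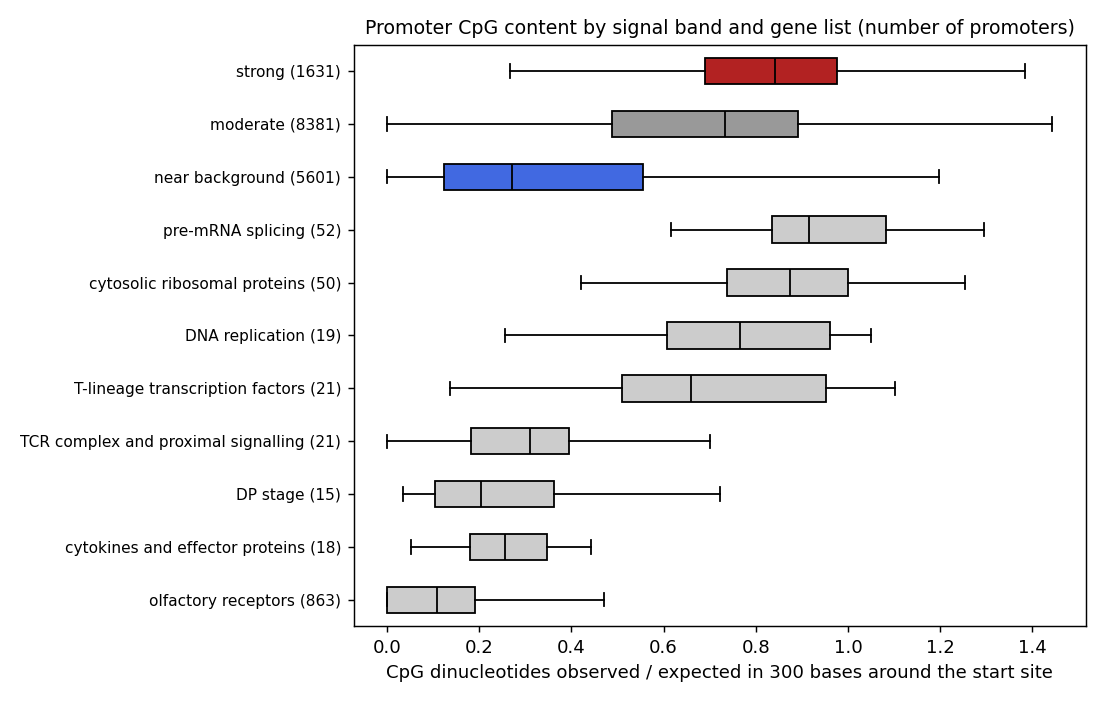
CpG ratio of 300-base promoters (x axis, observed over expected) by signal band and for 8 gene lists (y axis, number of promoters in brackets). Boxes span the quartiles with the median as a line, and whiskers reach the last value within 1.5 times the box length, with farther values not drawn. DP stage genes (median 0.20) and T cell receptor signalling genes (0.31) sit with the near-background band (0.27), and splicing (0.92) and ribosomal protein genes (0.87) sit at the strong band (0.84) or above it.

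The CG pairs can be read in the sequences of genes that stood side by side in the ranking. The stretches below run 5′ to 3′ on the gene's strand from 100 bases before to 20 after the start site (RefSeq, GRCm38.p6), with each CG pair in capitals. Eef1a1, Rpl9, Hnrnpf and Rplp0 serve protein synthesis and splicing and hold ranks 4, 9, 16 and 17.
Eef1a1 (chr9:78481705-78481824, minus strand): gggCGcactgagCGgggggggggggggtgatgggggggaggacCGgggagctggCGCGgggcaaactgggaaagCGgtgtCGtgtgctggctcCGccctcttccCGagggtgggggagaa
Rpl9 (chr5:65391412-65391531, minus strand): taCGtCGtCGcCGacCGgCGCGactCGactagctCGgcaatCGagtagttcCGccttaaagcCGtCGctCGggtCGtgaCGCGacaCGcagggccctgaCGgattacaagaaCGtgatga
Hnrnpf (chr6:117900240-117900359, plus strand): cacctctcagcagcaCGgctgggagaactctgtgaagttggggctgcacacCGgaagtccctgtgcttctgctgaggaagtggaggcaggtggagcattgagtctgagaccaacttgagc
Rplp0 (chr5:115559367-115559486, plus strand): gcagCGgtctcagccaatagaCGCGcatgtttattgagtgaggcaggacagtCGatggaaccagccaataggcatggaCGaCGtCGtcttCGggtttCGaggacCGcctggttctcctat
They hold 9, 20, 2 and 10 CG pairs in the stretches shown, so Hnrnpf departs from the other housekeeping genes. Rag1, Satb1, Cd8a and Cd3g, at ranks 5, 6, 11 and 18, are genes of the T lineage.
Rag1 (chr2:101649513-101649632, minus strand): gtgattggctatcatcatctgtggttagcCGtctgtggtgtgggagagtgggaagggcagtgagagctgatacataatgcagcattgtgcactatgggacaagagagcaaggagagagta
Satb1 (chr17:51833271-51833390, minus strand): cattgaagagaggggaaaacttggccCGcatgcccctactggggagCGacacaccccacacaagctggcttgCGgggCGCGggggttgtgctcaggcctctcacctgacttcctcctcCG
Cd8a (chr6:71373327-71373446, plus strand): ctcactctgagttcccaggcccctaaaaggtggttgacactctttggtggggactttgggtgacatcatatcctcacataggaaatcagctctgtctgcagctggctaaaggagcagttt
Cd3g (chr9:44980412-44980531, minus strand): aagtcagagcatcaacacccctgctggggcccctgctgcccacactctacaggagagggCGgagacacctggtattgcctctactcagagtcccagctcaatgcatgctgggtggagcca
These hold 1, 6, 0 and 1 CG pairs. Over the full 300 bases the CpG ratio was 0.16 for Rag1, 0.31 for Satb1, 0.20 for Cd8a and 0.18 for Cd3g. It was 0.70 for Eef1a1, 1.25 for Rpl9, 0.38 for Hnrnpf and 0.93 for Rplp0, so Hnrnpf lay close to Satb1.

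Short motifs were searched in the 300 bases on both strands, except TATAAA, which was searched on the gene's strand only. CCGGAAG holds a CG pair itself, so its shares are tied to the CpG ratios above and are no separate evidence. CCGGAAG, the core bound by factors such as GABPA, was in 19.7% of strong, 17.1% of moderate and 3.59% of near-background promoters. It was in 36.0% of ribosomal protein promoters, and in 0 of 15 DP stage and 0 of 21 T cell receptor signalling promoters. CAGGTG, an E-box bound by E proteins, was in 11 of 21 T cell receptor signalling promoters (52.4%) against 19.2% of all promoters, and in 4 of 15 DP stage promoters (26.7%). It was also in 9 of 10 promoters of thymic epithelial markers, whose signals here were low. CCAAT was in 15 of 18 mitosis promoters (83.3%) and 80.6% of histone promoters, against 38.2% of all. TATAAA placed 45 to 16 bases before the start was in 4.75% of near-background and 1.29% of strong promoters. A match is only a match of letters, and a promoter with none may hold a site elsewhere.

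A run of at least 8 pyrimidines that crossed the start site or came within 3 bases of it was in 26.0% of ribosomal protein promoters. It was in 28.6% of T cell receptor signalling promoters, against 7.71% of all. A pyrimidine run at the start is the sequence type of transcripts under growth control of translation. The runs counted here did not have to cross the start, so these are not shares of such transcripts. Lists with lower signals had shares as high, such as 4 of 10 promoters of thymic epithelial markers and 3 of 10 of neuronal proteins.

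Strong genes also lay next to each other along the chromosomes. In the RefSeq order of the ranked genes, 505 of 1993 placed strong genes (25.3%) had a strong gene next to them, against 3222 of 17925 other genes (17.97%). Genes outside the ranking were passed over, so such neighbours can have other genes between them. Pairs such as Rps3 and the small nucleolar RNA gene Snord15b were counted too, although their probe sets may share signal. Among the neighbours were the pairs Rag1 and Rag2, Cd8a and Cd8b1, and Cd3g and Cd3d. Each of these pairs encodes parts of 1 protein complex. Within the pairs signals differed, by 2.82 log2 units for Rag1 over Rag2 and by 1.50 for Cd3g over Cd3d, but by 0.14 for Cd8a over Cd8b1.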

How the data were processed

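The deposited table holds an intensity per probe set on a linear scale, which the authors made by RMA (background correction, quantile normalisation and summarisation over all 10 arrays), per the submitters' processing notes; the RMA version is not given in the sources used here. Because the arrays were normalised together, the wild-type values carry a trace of the other genotypes' distributions. Values were taken to log2 with no added constant. Genes were named through the platform annotation, updated by gene ID through RefSeq for 21553 of the 21640 probe sets with 1 symbol, and 87 kept the platform symbol. The 1321 probe sets with several symbols and the 11799 with none were left out of the ranking. The brightest probe set by WT mean stood for each gene, and 954 genes had several, of which 494 had probe sets more than 1 log2 unit apart.

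Samples were grouped by their titles. There was 1 group, so no genotypes were compared and no test across genes was run. Levels are described by their 3 values, their SD and overlap. The number of arrays, 3, limits the precision, and the choice of probe set can move a level by more than the SD between arrays. The labels call the samples biological replicates. The spread between them holds differences between individual mice and those of sorting, labelling and hybridisation, which cannot be told apart. Median intensity was 98.6, 94.0 and 97.1 in WT 1, WT 2 and WT 3, and the near-background limit was 6.13, 6.05 and 6.10 in log2. The members and the 55 gene lists were chosen with earlier results of these data known, so list counts are descriptions beside the share of all genes.

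The genes named are the 6 given markers, the 30 highest, the 20 highest outside protein synthesis, histones and small RNAs, up to 8 highest and 4 lowest of each list (all of short lists), the 15 with the largest SD among genes not near background, and 3 on each side of each limit; exceptions are stated. The banding was tested on simulated data. Alternatives covered the choice of probe set, the mean, a renewed normalisation, both limits, probe sets with several symbols and leaving out each array. Python 3.11.15, numpy 2.4.6, pandas 2.3.3 and matplotlib 3.10.9 were used. Promoter and microRNA sequences came from RefSeq tables of build GRCm38.p6, and 270 of 300 microRNA genes, let-7 included, matched a mature sequence.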

Additional observations from a re-analysis of the deposited data

How the results depend on the processing

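The count of near-background genes was 7347, and it ran from 6832 to 7176 with 1 array left out (where both remaining arrays must lie below the limit, so that calls can be lost by construction), from 5253 to 9530 with the limit at the 30th or 50th percentile, and came to 7893 with the 95th percentile of the olfactory receptors as the limit. All 6 given markers were strong under each of the 11 alternatives that could move a strong call. The order at the very top depended on which probe sets were used. Of the 100 highest genes, 34 were shared when each gene named by a several-gene probe set received its signal, 75 when a gene's probe sets were averaged, and 96 to 98 when 1 array was left out. List members that were strong numbered 356, and 353 to 360 with 1 array left out. They numbered 229 when strong meant the highest 5 percent, which by its construction admits fewer genes, and 525 at the highest 20 percent. Shifting each array to 1 median moved no gene to another band. Averaging probe sets moved 18 of 797 named genes to another band, and leaving out 1 array moved 19 to 29. Promoter CpG ratios in genes with a single start site listed, an alternative chosen after seeing the data, had medians of 0.85 in strong and 0.25 in near-background genes. No paired analysis was possible because a single group was described, so no groups share replicate numbers, and genes within it were compared by overlap alone. With 3 arrays, differences between neighbours in the ranking of less than about the typical SD are not resolved, and signals under the range of the olfactory receptors cannot be told from background.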

Other observations

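Strong signals also lay outside the ranking. Of the probe sets left out of it, 238 that name several genes and 907 that name none lay at or above the lowest strong mean, 9.66. The brightest of these was shared by Rn7s1 and Rn7s2, copies of the 7SL RNA of the signal recognition particle, with 14.35, 14.42 and 14.40 in WT 1, WT 2 and WT 3, above every ranked gene. A probe set for replication-dependent H3 histones that names 12 genes had a mean of 13.73, and a probe set shared by Actg1 and Actb had 13.25, 13.07 and 12.88.

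Of the 1994 strong genes, 1638 belonged to none of the 55 gene lists, so most of the strong band is not described by the functions named here. Predicted and clone-named genes were rare in it, with 12 strong genes of 1170 such symbols.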
